A study of Arabidopsis thaliana with 10 samples.

Results

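The 3 genes described here encode small proteins that bind calcium. AT1G76640 is calmodulin-like 39 (CML39 in the reference annotation, which also lists that name under AT5G42380, CML37). AT4G27280 and AT3G47480 are annotated as EF-hand calcium-binding genes. Each of the 3 had 1 probe set annotated to it alone, so they are 3 of the 13286 genes that could be named among the 22810 probe sets of the deposited table. The genes were picked from earlier results of these data. AT1G76640 and AT4G27280 were picked on the difference between homozygous and heterozygous plants of the CesA6 line, and AT3G47480 on the difference between the CesA4 and CesA6 lines. Those values are therefore given as a description. Tests are given for the contrasts that are not known to have been used to pick a gene.

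Calcium acts as a second messenger in plant cells, where touch, wounding, cold, hormones and microbial signals raise its level in the cytosol for a short time. The EF-hand is the helix-loop-helix fold that captures the ion. Calmodulins and calmodulin-like proteins are sensors that change shape on binding calcium and then act on partner proteins such as kinases, channels and transcription factors. Their transcripts are themselves often responsive to stimuli, and CML39 is known in Arabidopsis for a part in early seedling establishment.

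RNA came from rosettes of untreated Arabidopsis thaliana Col-0 plants aged 4 weeks, grown in a room chamber at 22 °C and 50% humidity, and was hybridised to 10 Affymetrix ATH1 arrays. The groups were homozygous AtCesA4 plants (allele irx5-2, 3 arrays), heterozygous AtCesA4 plants (3 arrays), homozygous AtCesA6 plants (2 arrays) and heterozygous AtCesA6 plants (2 arrays). The labels give the allele of the AtCesA6 plants as irx6-1, a name that the reference lists under another gene, so the line is called CesA6 only because the labels do. No wild-type array was analysed here, and a heterozygous plant carries a mutant copy too. The labels do not say whether the arrays of a group came from separate plants, so p-values measure the spread between arrays, which may be technical.

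The deposited signals had medians between 32 and 37.68 on the 10 arrays, and replicate arrays correlated at 0.935 to 0.954. Of 11 rosette leaf markers 2 had a named probe set, and both were bright. RCA, which activates Rubisco, had group means of 10360 to 11190, and SBPASE of the Calvin cycle 2774 to 3713, though SBPASE differed with genotype in the CesA4 line (-0.40 ± 0.12, adjusted p = 0.0224), a call lost in 5 of 19 alternatives. These were plain eBayes (adjusted p = 0.126) and the fits without homozygous CesA4 replicate 1 or 2 (0.0682 and 0.0798) or heterozygous CesA4 replicate 1 or 3 (0.0712 and 0.103). The mutated genes have no named probe set and were not checked. Of 7 root markers 3 had a named probe set, and their summed signal was 301.9 to 444 on homozygous and 109.6 to 316 on heterozygous CesA4 arrays, and 280.4 to 363.4 on homozygous and 125.6 to 133.2 on heterozygous CesA6 arrays. Most of it came from PYK10, a beta-glucosidase of roots, with group means of 109.3 to 368.2. The root-hair expansins EXPA7 and EXPA18 were too dim to be tested and did not follow PYK10. In homozygous against heterozygous CesA6 plants EXPA7 had 1.501 ± 0.411 against 10.44 ± 1.98, and EXPA18 1.139 ± 0.472 against 9.638 ± 9.68. In the CesA4 line EXPA7 had 1.465 ± 0.749 against 2.262 ± 2.53, and EXPA18 5.964 ± 8.47 against 3.721 ± 3.26. SAG29, the named member of 3 senescence markers, had 198.5 to 387.6 on homozygous against 27.66 to 49.05 on heterozygous CesA4 arrays, and 452.1 to 767.9 against 44.31 to 71.07 in the CesA6 line. The marker lists were chosen with earlier results of these data known. SAG29 rose in homozygous plants of both lines (2.89 ± 0.28, adjusted p = 1.69e-06, and 3.32 ± 0.34, adjusted p = 8.48e-06). PYK10 lay at the edge of the threshold, at 1.02 ± 0.34 in the CesA4 line (adjusted p = 0.0736) and 1.52 ± 0.41 in the CesA6 line (adjusted p = 0.05). It passed in 8 of 19 alternatives in the CesA6 line, among them the CesA6 arrays alone (adjusted p = 0.00011), and in 2 of 19 in the CesA4 line, one of them without heterozygous CesA4 replicate 1 (adjusted p = 0.000165). The part of both in the results below was not tested. In whole rosettes, a change in the share of a cell type and a change in RNA per cell cannot be told apart.

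AT1G76640, the CML39 gene, was nearly dark in heterozygous plants and clearly measured in homozygous plants of both lines. On the homozygous CesA4 arrays its signal was 73.31, 44.19 and 64.8, and on the heterozygous CesA4 arrays it was 10.91, 1.972 and 1.273. The homozygous CesA6 arrays had 163.9 and 114.3, and the heterozygous CesA6 arrays 5.595 and 4.152. Homozygous arrays were above heterozygous arrays without overlap in each line. The heterozygous values sat among the dimmest of each array, with 8.29% to 28.6% of probe sets below them, while homozygous values had 54.5% to 82.3% of probe sets below them.

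The CesA4 line is not known to have served to pick AT1G76640. In that line AT1G76640 was higher in homozygous plants by 3.19 ± 0.45 on the log2(signal + pseudocount) scale (SE, limma, adjusted p = 1.46e-05). Its mean signal was 60.77 ± 15 against 4.717 ± 5.37 (SD, n = 3 each), and the change was 3.71 without heterozygous replicate 1, the brightest of the dim arrays. The pseudocount equals 3.2 on the deposited scale, and 2 of the 3 heterozygous arrays lay below it, so the size of the change depends on it: it was 3.89 with a pseudocount of 4 and 2.09 with one of 64, against 16 here. The call held at each setting in which the gene was tested, among them the fit with no filter on low signals (adjusted p = 4.41e-06). With the lowest 50% left out the gene was not tested. Its homozygous signals helped it past the filter used here, since its heterozygous CesA4 values outranked only 8.29% to 28.6% of their arrays. Fitted to the CesA4 arrays alone the adjusted p was 0.000135. In the CesA6 line, where the gene was picked, the mean was 139.1 ± 35.1 against 4.874 ± 1.02 (SD, n = 2 each), a log2 change of 4.12 ± 0.55.

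The 4 group means of AT1G76640 ran from homozygous CesA6 through homozygous CesA4 and heterozygous CesA6 to heterozygous CesA4. The homozygous groups did not overlap each other, and the heterozygous groups did. The homozygous CesA4 plants stood at -1.16 relative to the homozygous CesA6 plants on the log2 scale (95% interval -2.19 to -0.13), a description because the homozygous CesA6 arrays served to pick the gene. When the genotypes of a line were averaged with equal weight, CesA4 stood at -0.69 ± 0.35 relative to CesA6 (adjusted p = 0.281). The interval ran from -1.42 to 0.04, so a difference between lines was not shown.

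AT4G27280 went the other way, bright in heterozygous and dim in homozygous plants. The heterozygous CesA4 arrays had signals of 1054, 1052 and 952.3, and the homozygous CesA4 arrays 96.81, 87.92 and 112.9. In the CesA6 line the heterozygous arrays had 1176 and 1148, and the homozygous arrays 168.3 and 95.52. Every heterozygous array was far above every homozygous one. The heterozygous values ranked above 96.9% to 97.8% of the probe sets of their arrays, and the homozygous values above 70.8% to 82.8%.

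In the CesA4 line AT4G27280 fell by 3.32 on the log2 scale (SE 0.18, adjusted p = 1e-11), its mean signal being 99.2 ± 12.6 in homozygous against 1019 ± 58.1 in heterozygous plants (SD, n = 3 each). All pairs of a homozygous and a heterozygous CesA4 array gave differences between -3.54 and -3.04, so the arrays of each group were close together. Of the probe sets tested, 0.27% had a larger change in either direction in that line. The CesA6 line, where the gene was picked, had 1162 ± 20.4 against 131.9 ± 51.5 (n = 2 each), a log2 change of -3.16 ± 0.22. The wider spread there came from the homozygous arrays, and the change was -3.56 without homozygous CesA6 replicate 1 and -2.76 without replicate 2.

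The changes of AT4G27280 in both lines were near in size. Their difference, the CesA4 change minus the CesA6 change, was -0.16 with a 95% interval from -0.74 to 0.41, and it is a description because it holds the contrast that served to pick the gene. The line comparison is not known to have served to pick it. Averaged over the genotypes, CesA4 stood at -0.27 ± 0.14 relative to CesA6 (adjusted p = 0.283, interval -0.56 to 0.02). In the order of group means the heterozygous CesA6 arrays came first and the heterozygous CesA4 arrays second, without overlap, and the homozygous groups overlapped.

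AT3G47480 was brightest in the CesA6 line, at either genotype. Its signal was 317.8 and 230 on the heterozygous and 171.7 and 82.57 on the homozygous CesA6 arrays. On the heterozygous CesA4 arrays it was 37.42, 41 and 35.67, and on the homozygous CesA4 arrays 24.09, 14.19 and 26.7. None of the 4 groups overlapped another, though how many of all probe sets had 4 separate groups was not counted. The homozygous CesA6 arrays were the furthest apart within a group. The values ranked above 69.7% to 90.4% of probe sets on the CesA6 arrays and above 31.1% to 54.1% on the CesA4 arrays.

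The line difference of AT3G47480, on which it was picked, was -2.54 ± 0.21 (CesA4 minus CesA6, log2 scale). It was present at both genotypes, at -2.73 in heterozygous plants (95% interval -3.35 to -2.11) and -2.34 in homozygous plants (-2.96 to -1.72). Anything that differed between the lines in growth, harvest or array processing cannot be told apart from the line itself.

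Genotype, which is not known to have been used to pick AT3G47480, gave smaller values, below 0 in each line. It fell in homozygous CesA6 plants, with a log2 change of -1.16 ± 0.33 (adjusted p = 0.027) and means of 127.2 ± 63.1 against 273.9 ± 62.1 (SD, n = 2 each). That call was lost without homozygous CesA6 replicate 2 (-0.65, adjusted p = 0.466), without heterozygous CesA6 replicate 1 (-0.93, adjusted p = 0.278) or replicate 2 (-1.39, adjusted p = 0.0648), and with limma's plain eBayes, which leaves out trend and robust (adjusted p = 0.13). In the CesA4 line the mean was 21.66 ± 6.6 in homozygous and 38.03 ± 2.72 in heterozygous plants (n = 3 each), a log2 change of -0.77 ± 0.27 that did not pass (adjusted p = 0.0566). Over the alternatives this adjusted p ran from 0.0299 to 0.238, so it lay on either side of the threshold. The difference between the changes was 0.39 ± 0.42 (adjusted p = 0.762, interval -0.48 to 1.27), which does not show that the lines respond alike.

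Read against all probe sets, limma called 15.1% of the 15922 tested between the CesA4 genotypes, with 8.20% up and 6.93% down in homozygotes, and there AT1G76640 and AT4G27280 passed and AT3G47480 did not. Between the CesA6 genotypes it called 8.53%, with 3.72% up and 4.80% down, among them AT3G47480. Between the lines it called 6.75%, and neither AT1G76640 nor AT4G27280 passed there. Groups without overlap were common, at 29.7% of tested probe sets in the CesA4 and 51.7% in the CesA6 comparison, so the lack of overlap alone sets no gene apart. For groups of the same genotype set against each other between the lines that share was not counted, and their lack of overlap is a description. Over the 10 arrays the log2 levels of AT1G76640 and AT4G27280 ran opposite to each other (r = -0.906), and AT3G47480 tracked them less closely (r = -0.142 and 0.431), as a description of arrays that fall into 4 groups.

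**Figure D1:**
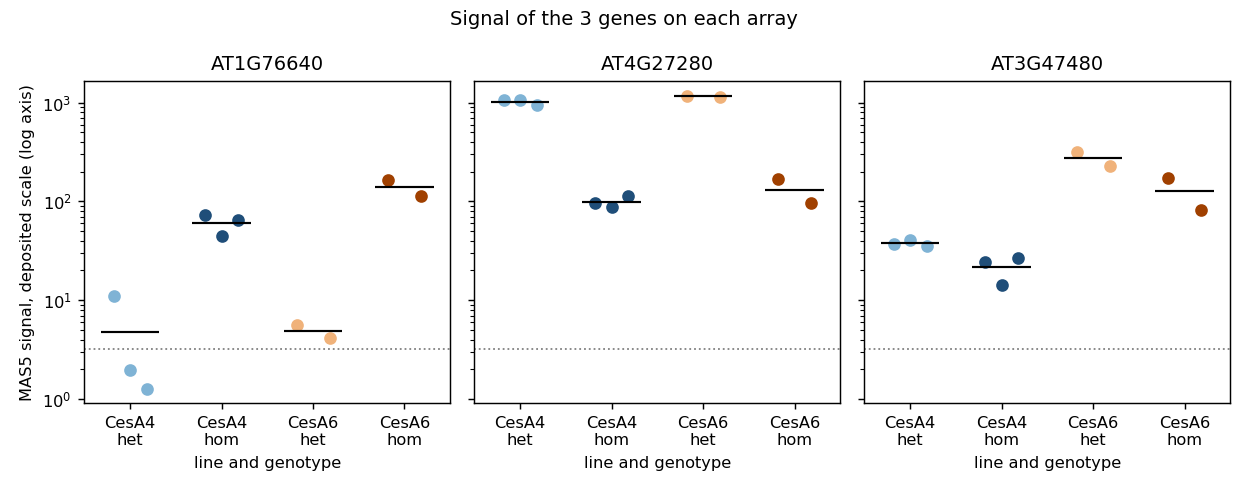
MAS5 signal on the deposited scale (log axis) of the 3 genes on each of the 10 arrays, by line and genotype (het, heterozygous; hom, homozygous). Points are arrays, black lines group means, and the dotted line marks the pseudocount of 3.2; AT1G76640 is high in homozygous plants, AT4G27280 in heterozygous plants, and AT3G47480 in the CesA6 line.

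The genes beside the 3 on their chromosomes were looked at next, 2 on each side in the order of the reference. Of these 12 neighbours 9 were tested. None passed in limma's fit in the CesA4 line, where 2 had an unadjusted p under 0.05 and 15.1% of all probe sets passed. One passed in the CesA6 line, AT4G27300 near AT4G27280, at -1.48 ± 0.23 (adjusted p = 8.82e-05, named after its value was seen), where 8.53% of all probe sets passed. The neighbour of AT1G76640 is another calmodulin-like gene, CML38 (AT1G76650). The mean signal of CML38 was 119.2 ± 41.9 in homozygotes against 119.7 ± 4.79 in heterozygotes of the CesA4 line, a log2 change of -0.07 ± 0.22 (adjusted p = 0.874). Its CesA6 means were 91.81 ± 18.6 against 158.7 ± 1.85, a change of -0.78 ± 0.27 that did not pass (adjusted p = 0.0757). CML38 was thus clearly measured in all 4 groups, unlike the adjacent CML39 gene, which was nearly dark in heterozygotes.

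The wider calcium machinery was covered through 10 families with 206 genes listed by locus, of which 50 had a named probe set and 35 were tested. The probe sets left untested were too dim. The families without a named probe set (calmodulins, calcineurin B-like sensors, their kinases, calcium-dependent protein kinases, calcium pumps and exchangers, annexins) are not analysed here. The 3 EF-hand NADPH oxidase genes with a named probe set were all too dim. What could be described was mainly the family of the 3 genes themselves, the calmodulin-like and small EF-hand proteins, with 52 listed, 37 named and 26 tested. The 11 that were not tested had group means of at most 14.77.

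Without the 3 genes, 23 members of that family were tested, and most did not pass. In the CesA4 line 4 were lower and 1 higher in homozygous plants, with a median log2 change of -0.38, against 6.93% lower and 8.20% higher and a median of 0.02 over all probe sets. Between the CesA6 genotypes 2 were lower and none higher (7 had an unadjusted p under 0.05 in limma's fit), with a median of -0.38. Over all probe sets 4.80% were lower and 3.72% higher there, with a median of -0.04. AT2G41090, a bright calmodulin-like gene, had 458.3 ± 37.7 in homozygous against 2797 ± 327 in heterozygous CesA4 plants and 980 ± 339 against 5391 ± 171 in CesA6 plants. It fell in both lines, with log2 changes of -2.60 ± 0.16 (CesA4, adjusted p = 6.66e-11) and -2.50 ± 0.19 (CesA6, adjusted p = 8.65e-09). AT3G25600 fell in both lines too, with changes of -1.94 ± 0.24 (CesA4, adjusted p = 4.52e-06) and -2.36 ± 0.29 (CesA6, adjusted p = 1.11e-05). Its means were 72.13 ± 13.2 against 286.6 ± 59.1 and 55.86 ± 28.7 against 284.8 ± 64.8. These 2 genes shared the direction of AT4G27280.

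The remaining calls of the family were in the CesA4 line. CML42, known for roles in trichome branching and insect defence, had 21.61 ± 18.2 against 83.84 ± 14.6, a change of -2.06 ± 0.40 (adjusted p = 0.00115). Its CesA6 change of -1.48 ± 0.49 missed the threshold (adjusted p = 0.0706). AT2G41410 fell by 0.41 (SE 0.13, adjusted p = 0.031), a call lost in 7 of 19 alternatives, among them the fit to the CesA4 arrays alone (adjusted p = 0.0633) and the loss of homozygous replicate 2 or of any heterozygous CesA4 replicate (adjusted p of 0.106, 0.0702, 0.0839 and 0.0591). It stood at -0.41 ± 0.16 in the CesA6 line (adjusted p = 0.116). AT1G21550 was the other calmodulin-like gene that rose beside AT1G76640, by 1.27 ± 0.27, from 30.36 ± 6.22 to 79.74 ± 25 (adjusted p = 0.00137), and it stood at 0.42 ± 0.33 in the CesA6 line. These 3 genes were named because so few passed, after their values were seen. Without AT1G76640, AT4G27280 and AT3G47480, none of the 23 genes passed limma's test of the difference between the changes in both lines. Among all probe sets 0.553% passed there. Of the 23 genes 0 had an unadjusted p under 0.05, so for them no response in 1 line alone was shown.

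**Figure D2:**
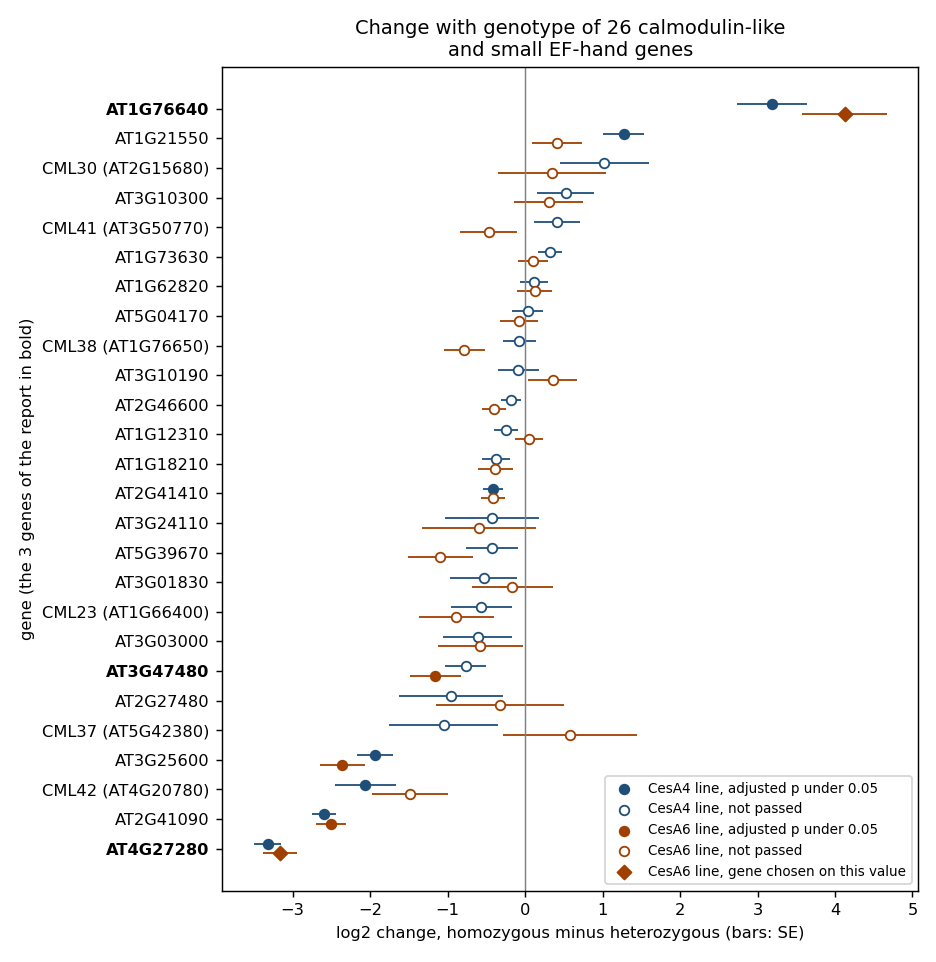
Log2 change of homozygous minus heterozygous plants for the 26 tested calmodulin-like and small EF-hand genes, in the CesA4 line (blue) and the CesA6 line (brown), with SE bars. Filled circles passed an adjusted p of 0.05, open circles did not, and diamonds are values on which a gene was picked; AT1G76640 lies at the right end and AT4G27280 at the left end in both lines.

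Between the lines the family leaned one way. Of the 23 genes besides the 3, 7 (30.4%) were lower in the CesA4 than in the CesA6 line and none was higher, where limma called 4.11% of all probe sets lower and 2.64% higher. AT3G47480 headed that order as a gene picked on this contrast. AT5G39670 followed at -1.84 ± 0.27 (adjusted p = 0.000104), with 16.76 ± 10 and 21.65 ± 1.84 in the homozygous and heterozygous CesA4 groups and 49.34 ± 3.87 and 110.8 ± 30.7 in the CesA6 groups. CML41, which acts on callose at plasmodesmata in immunity, was lower by 1.61 on the log2 scale in the CesA4 line (-1.61 ± 0.24, adjusted p = 0.000114). AT2G41090 differed by -1.001 ± 0.124 (adjusted p = 1.88e-05) and the bright EF-hand gene AT2G46600 by -0.52 ± 0.10 (adjusted p = 0.00173). The other 3 were AT3G01830 at -1.20 ± 0.34 (adjusted p = 0.0346), AT3G10190 at -0.83 ± 0.21 (adjusted p = 0.0153) and AT2G41410 at -0.46 ± 0.10 (adjusted p = 0.00626). The call of AT3G01830 was the least firm, lost in 8 of 17 alternatives with adjusted p up to 0.201 (without heterozygous CesA6 replicate 1). That of AT3G10190 was lost without homozygous or heterozygous CesA6 replicate 1 (adjusted p of 0.0721 and 0.135). With plain eBayes the calls of AT3G10190, AT2G41410 and AT2G46600 were lost (adjusted p of 0.113, 0.0653 and 0.0593). The lines did not overlap for 4 of the 23 genes (AT5G39670, CML41, AT2G46600 and AT3G01830), against 3.08% of all probe sets. All 4 were among the 7 called, and the call and the lack of overlap rest on the same arrays. This comparison of the family and these names were chosen after the values were seen. With AT3G47480 the count was 8 of 26, falling to 5 with plain eBayes and to between 6 and 8 when single arrays were left out.

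**Figure D3:**
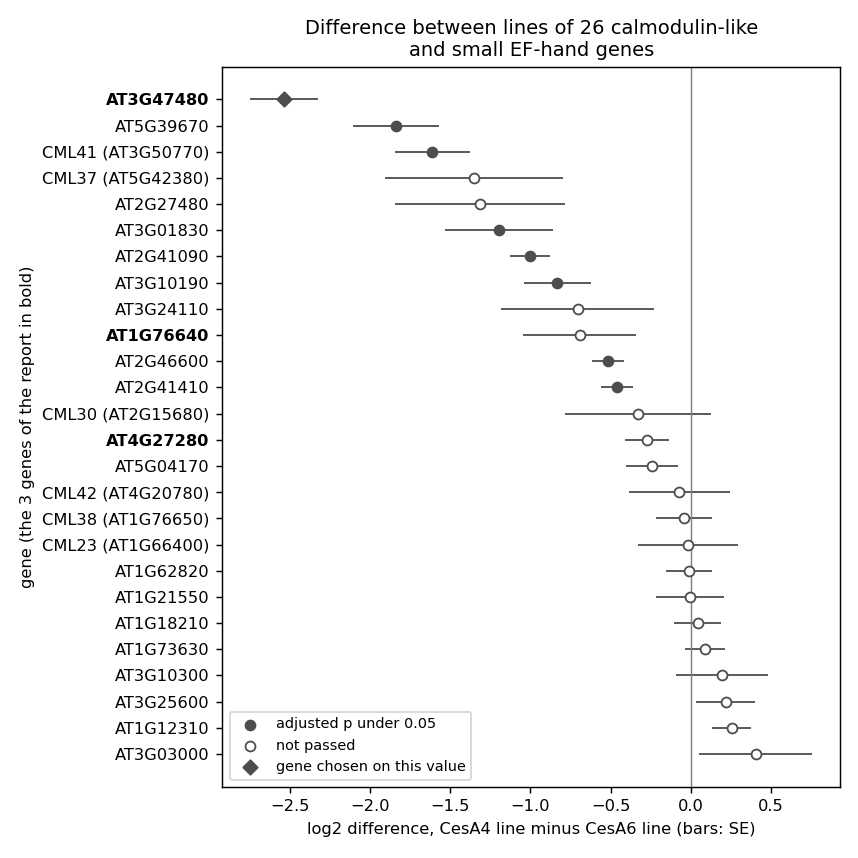
Log2 difference between the lines (CesA4 minus CesA6, genotypes averaged) for the 26 tested calmodulin-like and small EF-hand genes, with SE bars. Filled circles passed an adjusted p of 0.05, open circles did not, and the diamond is AT3G47480, picked on this contrast; all genes that passed lie below 0.

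Other parts of calcium signalling gave few values. Of 13 calmodulin-binding transcription regulators 6 were tested. In the CesA4 line 2 were higher and 1 lower, where 8.20% and 6.93% of all probe sets were, with a median of 0.14. None of the 6 passed in limma's fit for CesA6 (1 had an unadjusted p under 0.05), where 8.53% of all probe sets did, with a median of -0.30. AT3G16940 rose by 0.76 ± 0.18 in the CesA4 line (adjusted p = 0.00469), from 78.92 ± 8.37 to 135.9 ± 9.63. AT2G18750 rose by 0.74 ± 0.25 (adjusted p = 0.0433), a call lost in 9 of 19 alternatives, among them every CesA4 array left out. AT4G31000 fell by 1.96 (SE 0.52, adjusted p = 0.00994), with 43.66 ± 8.54 in heterozygous and 11.86 ± 12 in homozygous plants, and it lost its call without homozygous or heterozygous CesA4 replicate 3 (adjusted p of 0.0607 and 0.0573). None of 3 tested channel genes passed with genotype in either line by limma, and 0 had an unadjusted p under 0.05. The brightest of these, the glutamate receptor-like channel gene GLR3.3, which takes part in wound signalling, stood at 0.28 ± 0.21 in the CesA4 line (adjusted p = 0.435) and 0.39 ± 0.26 in the CesA6 line (adjusted p = 0.43). Between the lines GLR3.3 was lower in CesA4 (-0.571 ± 0.165, limma, adjusted p = 0.0381), also taken up after its value was seen.

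Genes that respond fast to touch and wounding were set beside these, since calcium sensors often move with such stimuli. The list was chosen with earlier results of these data known, and of 12 listed 2 were tested. Between the genotypes 15.1% of all probe sets passed in the CesA4 line and 8.53% in the CesA6 line. WRKY53, a transcription factor of senescence and defence, fell in both lines, with changes of -2.52 ± 0.25 (CesA4, adjusted p = 8e-08) and -1.94 ± 0.30 (CesA6, adjusted p = 0.000112). The zinc-finger gene STZ fell in the CesA6 line by 1.66 (SE 0.22, adjusted p = 1.2e-05) and stood at -0.39 ± 0.18 in the CesA4 line (adjusted p = 0.155). GI, the 1 clock gene tested of 9, stood at 0.17 ± 0.16 and 0.19 ± 0.20 with genotype (adjusted p of 0.559 and 0.668). Between the lines GI was higher in CesA4 by 0.49 ± 0.13 (limma, adjusted p = 0.022), a value taken up after it was seen. None of 10 salicylate and immunity genes had a named probe set, and they are not analysed here.

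The genes whose log2 levels ran most like each of the 3 over the 10 arrays were ranked by Pearson's r among 8616 genes. The arrays fall into 4 groups, so a high r mainly repeats the group means, and it is given as a description. Nearest to AT1G76640 were AT3G21670 (NPF6.4, of a nitrate and peptide transporter family, r = 0.977), the glucosyltransferase gene UGT76E11 (0.976), AT3G28270 (0.973) and AT1G54020 (0.973). Between deviations from the group means r was 0.836, 0.962, 0.67 and 0.865 for these 4 genes in that order. Those deviations are part of the r that ranked the genes, so they add no separate evidence. AT1G54020 and AT3G28270 had large changes in the CesA4 line, of 3.35 ± 0.29 and 3.93 ± 0.17, a description of genes ranked on these same arrays. The most opposite profiles were those of AT1G67470 (r = -0.985) and AT1G73600 (-0.98).

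Nearest to AT4G27280 were AT1G65490 (r = 0.982), AT4G38550 (0.977), the jasmonate-responsive defensin gene PDF1.2 (0.974) and the tetraspanin gene TET8 (0.97). All 4 were lower in homozygous plants of both lines, a direction that came with the ranking on these same arrays. As a description, their log2 changes in the CesA4 line were -1.64 ± 0.16, -2.02 ± 0.18, -3.40 ± 0.48 and -1.52 ± 0.17. Most opposite were AT1G73920 (r = -0.994) and AT3G02480 (-0.984).

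AT3G47480 drew other genes. PPDK, the pyruvate orthophosphate dikinase gene, had r = 0.974, RING1 0.962, AT1G35710 0.954 and the EF-hand gene AT2G46600 0.954. Of these 4 AT1G35710 had the largest change with genotype, at -1.08 ± 0.21 in the CesA4 line and -1.93 ± 0.25 in the CesA6 line. These values are a description, because the genes were ranked on the same arrays. PPDK had 282 ± 28.7 and 319.5 ± 31.3 in the homozygous and heterozygous CesA4 groups against 432.5 ± 75.9 and 591.5 ± 24.5 in the CesA6 groups. AT5G62350 (r = -0.948) and AT5G23900 (-0.932) were most opposite.

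**Figure D4:**
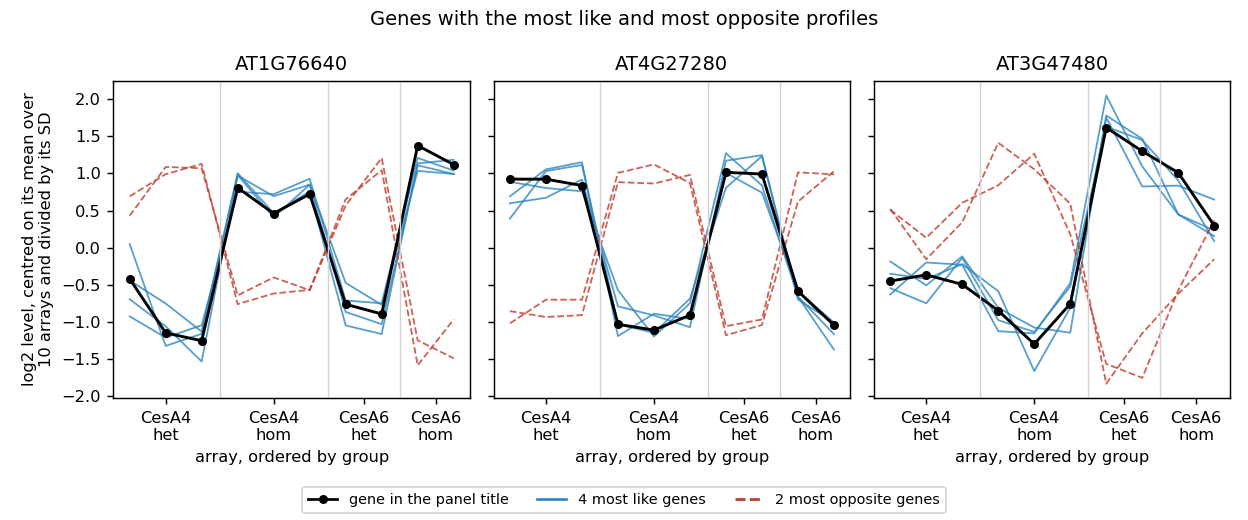
Log2 level on each of the 10 arrays, centred on the gene's mean and divided by its SD, for AT1G76640, AT4G27280 and AT3G47480 (black), the 4 genes most like each (blue) and the 2 most opposite (red, dashed). The first 2 panels step with genotype in both lines, and the third with line.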

How the data were processed

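The authors deposited MAS5 intensity values on a linear scale, computed with GCOS per the submitters' processing notes. The 2% trimmed mean of every array was 100.01, and no detection calls were used. Here every array was multiplied up to a trimmed mean of 500, and log2(signal + 16) was fitted, so a dim gene's fold change is understated. Leaving out 64 control probe sets and the 30% with the lowest mean kept 15922. limma 3.58.1 (R 4.3.3) fitted 1 mean per group over all arrays, with eBayes (trend, robust), 6 residual degrees of freedom and Benjamini-Hochberg adjustment over all tested probe sets at 0.05. Errors of log2 changes are SE, and those of signals SD over the arrays of a group. The number of arrays limits the precision. The fit was tested on simulated data.

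GEO's platform annotation gave 13513 probe sets 1 gene, 503 several and 8730 none. Of these 13436 matched the TAIR10.1 reference, which served for names and gene order. A gene with several probe sets took the brightest. The 3 genes and all 17 lists were chosen with earlier results of these data known. Named were the 3 genes, up to 4 called genes per list and genotype comparison with the smallest p (else the brightest tested), and the 4 most like and 2 most opposite genes. Genes named outside this rule are marked as chosen after their values were seen. Alternatives changed the pseudocount, scale, normalization, filter, eBayes settings, arrays fitted and a replicate block.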

Additional observations from a re-analysis of the deposited data

Results flagged for a closer look

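STZ (AT1G27730) is a zinc-finger gene of the touch and wound list, which was chosen with earlier results of these data known. Its change differed between the lines by a test of the difference itself. The CesA4 change minus the CesA6 change was 1.27 ± 0.28 (limma, adjusted p = 0.0376), where 0.553% of all probe sets passed. Homozygous against heterozygous signals were 278.9 ± 65 against 359.8 ± 22 in the CesA4 line (n = 3 each) and 212.9 ± 52.6 against 668.3 ± 26.2 in the CesA6 line (n = 2 each). The difference kept its direction under 18 alternatives, at 1.02 to 1.52, and lost its call in 9, with adjusted p between 0.00753 and 0.327. Those were plain eBayes (0.327) and the fits without homozygous CesA4 replicate 1 or 3 (0.0951 and 0.0694), any heterozygous CesA4 replicate (0.066, 0.0508 and 0.0865), homozygous CesA6 replicate 2 (0.283) or either heterozygous CesA6 replicate (0.21 and 0.139). No group was large enough to look for a single outlying array.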

How the results depend on the processing

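The CesA4 changes of AT1G76640 (1.90 to 3.89) and AT4G27280 (-3.42 to -3.17) passed under all 18 and 19 alternatives that gave a value, AT1G76640 having none with the lowest 50% left out, where it was not among the probe sets tested. Their line differences passed under none of 17 and 18. The CesA6 change of AT1G76640 became 3.09 with a pseudocount of 64 and 2.88 on the deposited scale with 16. AT3G47480 passed in the CesA4 line with quantile normalization (-0.86, adjusted p = 0.0362) and with the lowest 50% left out (-0.77, adjusted p = 0.0486), and failed in the CesA6 line with plain eBayes (-1.16, adjusted p = 0.13). Plain eBayes called 747 probe sets in the CesA6 line (1358 in the fit reported), 428 between lines (1074), 0 for the difference of changes (88; 1629 had an unadjusted p under 0.05) and 5 EF-hand genes between lines (8). Of 35 tested calcium genes 4 were lower and 1 higher in homozygous CesA6 plants, where 4.80% and 3.72% of all probe sets were. These counts hold AT4G27280 and AT1G76640, which were picked on this comparison, and AT3G47480. Without the 3 genes 2 of 32 were lower and none higher. The 4 became 7 with a pseudocount of 64, on the deposited scale and with the CesA6 arrays alone. The 1 became 0 with the lowest 50% left out, where AT1G76640 is untested. The cause was not tested for the others.

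With single arrays left out, AT3G47480 ran from -0.92 to -0.53 in the CesA4 line, from -1.67 to -0.65 in the CesA6 line, and from -0.12 (sign turned, without homozygous CesA6 replicate 2) to 0.91 for the difference of changes. Its CesA4 change passed without homozygous CesA4 replicate 3 or either homozygous CesA6 replicate (adjusted p of 0.0404, 0.0423 and 0.0363). AT4G27280 ran from -3.56 to -2.76 in the CesA6 line and from -0.56 to 0.24 (sign turned, without homozygous CesA6 replicate 1) for the difference of changes. Counts ran from 719 (without homozygous CesA6 replicate 2) to 1552 in the CesA6 line, 499 (without heterozygous CesA6 replicate 1) to 1103 between lines, and 14 (without heterozygous CesA6 replicate 1) to 130 for the difference of changes.

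Whether replicate numbers pair the arrays was not settled. Deviations of same-numbered arrays correlated at 0.0145 to 0.0822, under the 0.1 set for pairing, so the fit reported used no block. Of 3 homozygous CesA4 arrays 2 correlated best with their own number. With 2 arrays per group the CesA6 deviations mirror each other, so both replicates share 1 value (0.0372) and do not count separately. With the replicate block 197 probe sets passed for the difference of changes (88 in the fit reported) and 1371 for line (1074). For genotype 2719 passed in the CesA4 line (2410) and 1638 in the CesA6 line (1358). With it AT3G47480 passed in the CesA4 line (-0.77, adjusted p = 0.0299), as did PYK10 in both lines (adjusted p of 0.000669 and 0.000175).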
